A study of Mus musculus with 12 samples.

Results

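The mouse genes that encode collagen chains were taken as every entry of the deposited count table whose symbol reads Col, a number, a and a number, which gave 44 of the 41079 genes. RNA was measured in 12 whole embryos from timed matings of Mfsd12 heterozygous parents, at 10.0 to 11.0 days post-fertilization. The protein made from Mfsd12 lies in the membranes of lysosomes and pigment granules and is needed to bring cysteine into these compartments. The embryos were 4 knockouts, 4 heterozygotes and 4 wild-types, each a separate animal. Nothing else about the Mfsd12 allele or the strain was stated, and no treatment is named for any group. The sample titles also carry a number of unstated meaning. The number 18 was carried by knockout 3, heterozygous 1, wild-type 1 and wild-type 2, number 4 by knockout 2, heterozygous 4, wild-type 3 and wild-type 4, number 14 by knockout 1 and the library labelled heterozygous 2, number 15 by knockout 4, and 4.1b by heterozygous 3. All p-values measure the spread between these embryos. Those for the title numbers treat embryos that share a number as replicates, so they do not measure how far groups with different numbers vary. In RNA from a whole embryo, fewer cells of a type cannot be told apart from less RNA per cell.

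Collagens are secreted or membrane-bound proteins with a triple helix of 3 chains. Fibrillar types form the fibres of skin, bone and cartilage, type IV forms the sheet-like network of basement membranes, and the fibril-associated types sit on the surface of fibres. Others form beaded filaments, span the plasma membrane or anchor the epidermis. In the embryo at mid-gestation, connective tissue mesenchyme, the notochord and early cartilage, epithelia and vessel walls are known sources of these chains.

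Between 53133084 and 67977990 reads were counted per embryo. Mfsd12 itself lay between 2.31 and 3.56 CPM (read counts scaled to library size) in knockout embryos, between 2.57 and 8.84 CPM in those labelled heterozygous and between 9.37 and 16.2 CPM in wild-type embryos. The library labelled heterozygous 2, at 2.57 CPM, lay inside the knockout range and so went against its label. Knockout 3 stood apart by yolk sac endoderm markers, whose summed level was 4618 CPM there and 59.1 to 677 CPM in the other 11 embryos. Mesenchyme, endothelial and red blood cell markers were present in every embryo labelled whole embryo, with sums of 439 to 814 CPM, 180 to 608 CPM and 4918 to 83820 CPM. Collagen genes together took 0.297% to 0.524% of the counted reads.

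Most collagen mRNA came from few genes. On a scale per exon length (RPKM, which is CPM per kilobase of exon), averaged over the 12 embryos, Col3a1, which encodes the chain of type III collagen, led with 174.1 RPKM and 25.1% of the collagen sum. Next came the type I chains, Col1a2 with 102.2 RPKM and Col1a1 with 62.9 RPKM, and Col18a1, a basement membrane zone chain whose end fragment is endostatin, with 50.3 RPKM. The following positions were held by the type IV chain Col4a1 with 42.8 RPKM, Col26a1 with 41.0 RPKM, the type IV chain Col4a2 with 36.2 RPKM, the type II cartilage chain Col2a1 with 34.2 RPKM, the type V chain Col5a2 with 27.5 RPKM and the type IX chain Col9a1 with 22.2 RPKM. These 10 genes made up 85.5% of the collagen sum. In all, 12 genes reached 10 RPKM, 28 reached 1 RPKM and 38 reached 0.1 RPKM. By type, the 11 fibrillar genes held 61.8% of the sum, the 6 basement membrane genes 13.4%, the 3 basement membrane zone genes 7.74%, the 9 fibril-associated genes 5.67%, the 6 beaded filament genes 2.59%, the 4 transmembrane genes 1.88%, the 3 short chain genes 1.07% and the remaining 2 genes 5.92%. Neighbours in the order of the 10 leading genes overlapped in their ranges over embryos, as for Col1a2, at 63.3 to 132.7 RPKM, and Col1a1, at 22.9 to 96.4 RPKM.

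**Figure D1:**
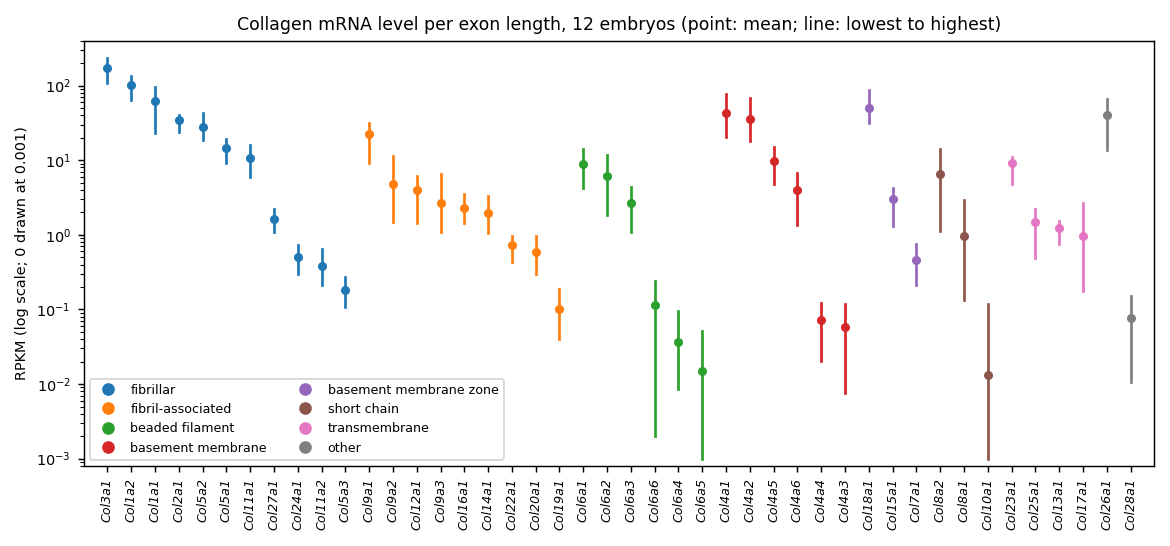
Level of each collagen gene per exon length (RPKM, log scale) by structural type; points are means of 12 embryos and lines run from the lowest to the highest embryo. Col3a1 had the top mean, 174.1 RPKM, and Col10a1 the bottom one, with several embryos at 0.

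A filter on low counts left 43 of the 44 genes for testing. It removed Col10a1, which encodes the chain of hypertrophic cartilage and had at most 24 reads in any embryo. Genotype comparisons called no collagen gene at an adjusted p under 0.05, and neither did any other gene pass in those comparisons with edgeR. Between number 18 and number 4 embryos 11 of the 43 collagen genes differed, with 9 higher and 2 lower in number 18. That is 25.6% of the collagen genes, against 7.85% of the 21492 genes tested, of which 4.75% were higher and 3.1% lower. The collagen genes had a median log2 fold change of 0.29, against 0.03 over all genes tested. Those that were higher were Col26a1 and genes of fibril-associated, beaded filament, short chain and transmembrane chains. With edgeR, 0 of the 11 fibrillar genes passed. Limma-voom also called Col1a1 and Col1a2, whose edgeR log2 fold changes had opposite signs, -0.29 and 0.40.

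**Figure D2:**
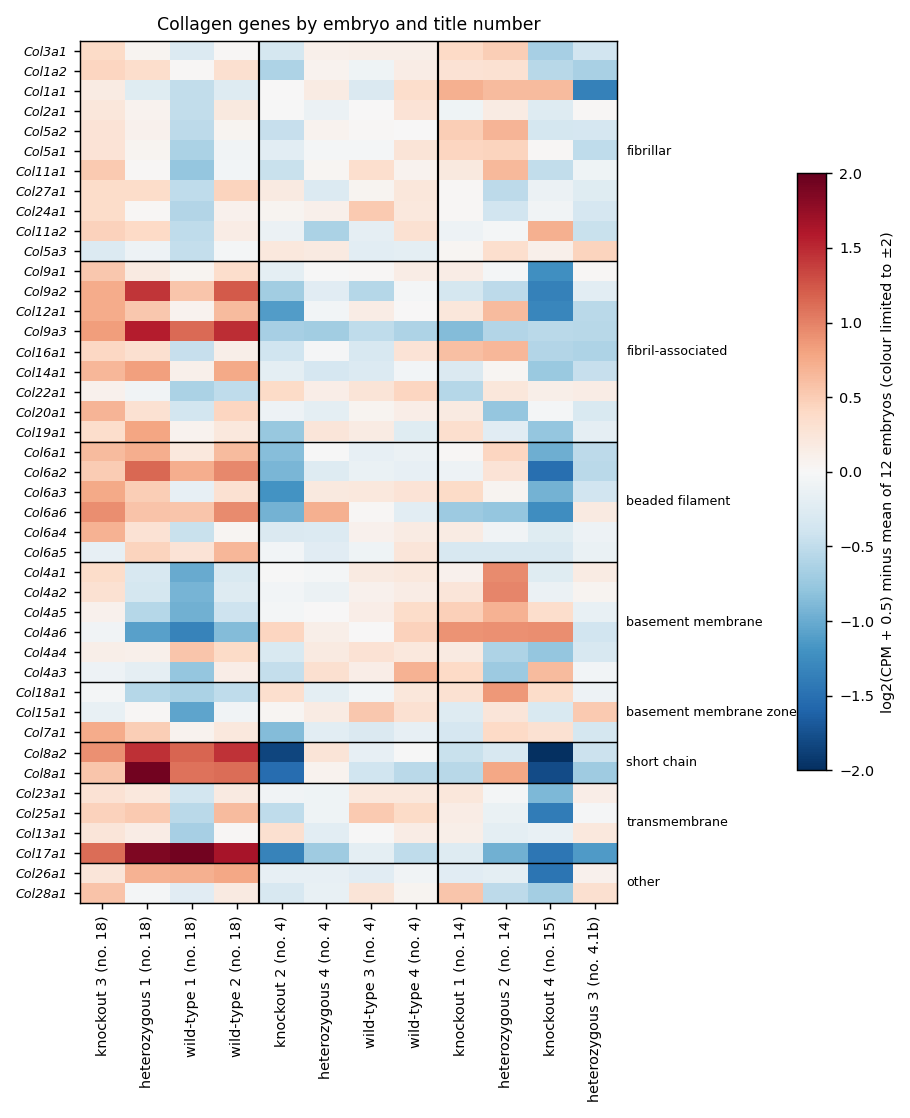
Each row is a tested collagen gene and each column an embryo, grouped by title number (no.) and within it by genotype; colour is log2(CPM + 0.5) minus the gene's mean over 12 embryos. Number 18 embryos were high for Col17a1, Col9a3, Col8a1 and Col8a2, and knockout 4, the embryo with number 15, was low for Col8a1, Col8a2 and Col6a2.

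The fibrillar chains were the most abundant type, and the title numbers overlapped for each of those described here. Values for each title number follow the order knockout, heterozygous, wild-type 1 or 3, wild-type 2 or 4. Col3a1 had 1227, 977, 779 and 961 CPM in number 18 embryos and 741, 1012, 1025 and 1020 CPM in number 4 embryos. Knockout 1 and the library labelled heterozygous 2, both of number 14, had 1240 and 1324 CPM, knockout 4 had 596 CPM and heterozygous 3 had 725 CPM. The highest 4 values thus came from number 14, number 18 and number 4 alike, and knockouts held both a high and the lowest value. Col1a2 had 693, 662, 523 and 647 CPM in number 18 embryos and 337, 541, 486 and 570.5 CPM in number 4 embryos, with 629, 350.5, 637 and 331 CPM in knockout 1, knockout 4, the library labelled heterozygous 2 and heterozygous 3. The groups overlapped, and the difference (log2 fold change 0.40 ± 0.18 SE, edgeR adjusted p = 0.177) did not pass. Col1a1 had 390.2, 293, 247 and 291 CPM in number 18 embryos and 349, 389, 285 and 445 CPM in number 4 embryos, against 572 and 539 CPM in number 14, 541 CPM in knockout 4 and only 136 CPM in heterozygous 3. Here, too, the title numbers overlapped, with the lowest level in heterozygous 3 and the highest in knockout 1.

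Type I collagen is usually built from 2 Col1a1 chains and 1 Col1a2 chain. The ratio of Col1a1 to Col1a2 RPKM ran from 0.361 in heterozygous 3 to 1.36 in knockout 4, a 3.76-fold range. It was 0.496, 0.390, 0.415 and 0.396 in number 18 embryos, and 0.912, 0.633, 0.517 and 0.687 in number 4 embryos, so the title numbers did not overlap. This ratio was not tested. It also differed by single embryo, being 0.800 and 0.746 in the number 14 embryos. The ratio of the type IV chains Col4a1 and Col4a2, by contrast, ran only from 1.05 in knockout 1 to 1.28 in heterozygous 3, a 1.21-fold range. Col5a2 to Col3a1 ran from 0.133 to 0.194, a 1.46-fold range.

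**Figure D3:**
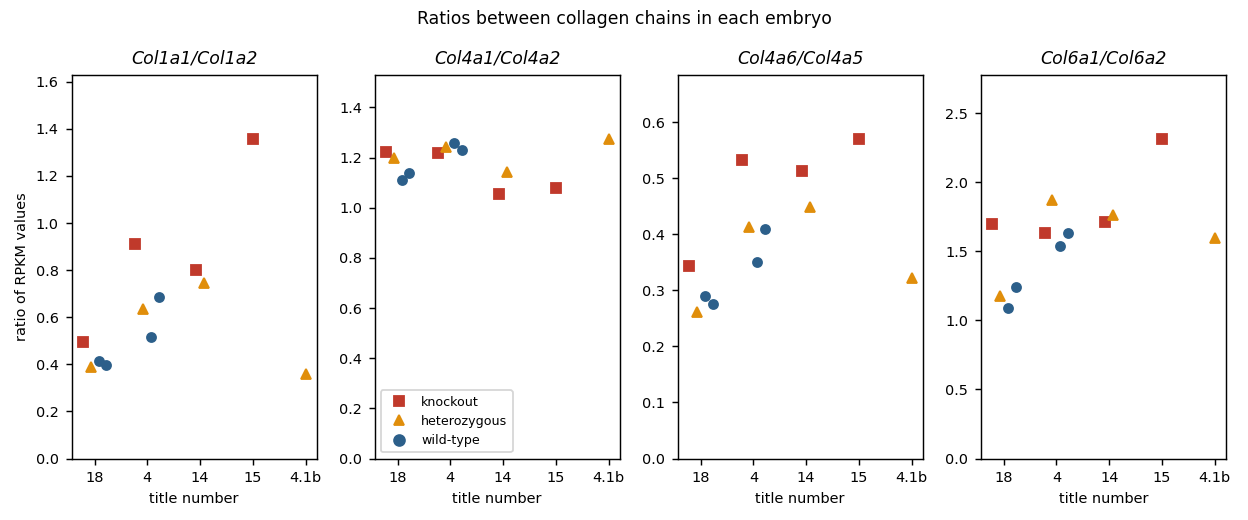
Ratios of RPKM values of chain pairs in each embryo, by title number; symbols and colours give the genotype. Col1a1/Col1a2 varied from 0.361 to 1.36, and Col4a1/Col4a2 stayed between 1.05 and 1.28.

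The other fibrillar genes lay between wide but overlapping limits. The cartilage chain Col2a1 had 139.7 to 236.5 CPM, Col5a2 123 to 283 CPM and Col5a1 78.3 to 165.5 CPM, both of which help to start fibrils. The cartilage chain Col11a1 had 48.2 to 129.9 CPM. Col27a1 had 9.41 to 18.8 CPM, Col24a1 2.32 to 5.56 CPM, the cartilage chain Col11a2 1.64 to 4.94 CPM and Col5a3 0.654 to 1.68 CPM. With edgeR, 0 of the 11 passed in any of the 4 comparisons; limma-voom called Col1a1 and Col1a2 between the title numbers.

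Of 9 fibril-associated genes, 3 were higher in number 18 with edgeR, namely Col9a3, Col9a2 and Col14a1, against 4.75% of all genes tested. Type IX collagen, which covers type II fibrils in cartilage, is built from Col9a1, Col9a2 and Col9a3 chains. Col9a3 had 12.1, 20.5, 14.9 and 19.2 CPM in number 18 embryos and 3.98, 3.86, 4.46 and 4.12 CPM in number 4 embryos, with 3.40, 4.37, 4.22 and 4.33 CPM in knockout 1, knockout 4, the library labelled heterozygous 2 and heterozygous 3. All 4 number 18 embryos lay above all the others (log2 fold change 2 ± 0.18 SE, edgeR adjusted p = 0.00154). Col9a3 and Tcfl5, on the opposite strand, overlap by 237 exon bases, and reads there were shared. Tcfl5 had a mean of 1.19 CPM in number 18 and 1.90 CPM in number 4 embryos (log2 fold change -0.70, edgeR adjusted p = 0.0771). Col9a2 had 19.01, 30.98, 16.7 and 26.9 CPM in number 18 embryos and 6.71, 9.501, 7.40 and 10.8 CPM in number 4 embryos, and 8.70, 4.08, 7.61 and 9.56 CPM in knockout 1, knockout 4, the library labelled heterozygous 2 and heterozygous 3. It was higher in number 18 (log2 fold change 1.43 ± 0.20 SE, edgeR adjusted p = 0.0092). Col9a1 differed less, with 132, 104, 94.7 and 116 CPM in number 18 and 79.1, 90.6, 92.2 and 101 CPM in number 4 embryos, and 101, 38.8, 88.9 and 92.5 CPM in the other 4 in the same order (log2 fold change 0.29 ± 0.14 SE, edgeR adjusted p = 0.213). The ratio of Col9a1 to Col9a2 RPKM was 2.17 to 4.49 in number 18 and 6.04 to 8.07 in number 4 embryos.

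Col14a1, which encodes a chain on the surface of type I fibrils, had 20.9, 23.4, 14.1 and 22.4 CPM in number 18 and 11.4, 10.3, 10.8 and 12.6 CPM in number 4 embryos. It was higher in number 18 (log2 fold change 0.83 ± 0.18 SE, edgeR adjusted p = 0.0332), and knockout 1, knockout 4, the library labelled heterozygous 2 and heterozygous 3 had 10.6, 7.64, 13.4 and 9.34 CPM. Col12a1 and Col22a1, of tendon and muscle attachments, had 20.7 to 86.5 CPM and 3.97 to 8.91 CPM. Their log2 fold changes were 0.75 ± 0.27 SE and -0.64 ± 0.19 SE. Every number 18 embryo lay below every number 4 embryo for Col22a1, at most 6.88 CPM against at least 7.16 CPM. Col16a1 had 9.07 to 22.7 CPM, Col20a1 1.90 to 6.06 CPM, and Col19a1 0.536 to 2.54 CPM, and none of these 5 passed with edgeR. DESeq2 and limma-voom each called Col12a1 and Col22a1, and limma-voom also Col9a1 and Col19a1. These tools called 17.9% and 40.2% of all genes. By list, 2 of the 7 tested cartilage collagens were higher in number 18 with edgeR, against 4.75% of all genes tested. These were Col9a2 and Col9a3 again. The list had a median log2 fold change of 0.29, against 0.03 over all genes.

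The beaded filaments of type VI collagen link cells to the surrounding matrix. With edgeR, 2 of their 6 genes were higher in number 18 embryos, against 4.75% of all genes tested. All 6 had a positive fold change, against 52.7% of all genes. For the scarce Col6a4, Col6a5 and Col6a6 it had an SE of 0.76, 0.72 and 0.54. Col6a2 had 46.2, 71.7, 53.9 and 63.5 CPM in number 18 and 16.9, 26.8, 29.3 and 28.7 CPM in number 4 embryos, with 30.1 and 38.9 CPM in number 14, 10.97 CPM in knockout 4 and 21.9 CPM in heterozygous 3. Number 18 embryos were all above the rest (log2 fold change 1.22 ± 0.13 SE, edgeR adjusted p = 0.0043). Col6a1 had 51.8, 55.7, 38.6 and 51.9 CPM in number 18 embryos, 18.2, 33.1, 29.7 and 30.9 CPM in number 4 embryos and 33.98, 16.8, 45.1 and 23.1 CPM in knockout 1, knockout 4, the library labelled heterozygous 2 and heterozygous 3 (log2 fold change 0.85 ± 0.18 SE, edgeR adjusted p = 0.0321). Col6a3, the third chain of the same molecule, had 47.1, 38.9, 24.7 and 34.2 CPM in number 18 and 11.8, 31.6, 31.8 and 33.2 CPM in number 4 embryos. Those groups overlapped (log2 fold change 0.47 ± 0.34 SE, edgeR adjusted p = 0.385). On GRCm39 chromosome 10, Col6a1 lies at 76544626 to 76561869 and Col6a2 at 76431590 to 76459464, both on the minus strand, and Col18a1 lies 326143 bases from Col6a1. The alternative chains Col6a4, Col6a5 and Col6a6, which lie close together on chromosome 9, were scarce, with at most 0.748, 0.493 and 1.86 CPM.

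Of the 6 basement membrane chains of type IV collagen, 1 was lower in number 18 with edgeR, Col4a6, against 3.1% of all genes tested. With edgeR 0 were higher, and 5 of the 6 had a negative fold change. DESeq2 called Col4a5 and Col4a6, against 17.9% of all genes. Limma-voom called Col4a1, Col4a2, Col4a5 and Col4a6, against 40.2%. Type IV collagen genes sit in head-to-head pairs, and the start of Col4a1 is 11 bases from that of Col4a2 in the deposited GRCm39 annotation, with 12 bases of exon overlap. The window around the Col4a2 start, from 250 bases before to 50 after, holds both start sites in the RefSeq GRCm38.p6 table, in which they lie 21 bases apart. It is shown because the pair shares it, with the CCAAT box (CCAAT) and the GC box (GGGCGG), each on either strand, in capitals, at chr8:11312555-11312854 on the plus strand.
Col4a2: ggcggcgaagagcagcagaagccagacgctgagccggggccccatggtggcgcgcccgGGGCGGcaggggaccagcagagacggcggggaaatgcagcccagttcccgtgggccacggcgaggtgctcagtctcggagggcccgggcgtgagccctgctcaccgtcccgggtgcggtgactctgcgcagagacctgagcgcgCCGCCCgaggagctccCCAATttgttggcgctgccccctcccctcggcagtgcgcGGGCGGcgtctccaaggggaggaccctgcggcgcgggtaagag
It held 1 CCAAT box and 3 GC boxes.

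Col4a1 had 431, 267, 166 and 270.3 CPM in number 18 and 332, 326, 379.6 and 389 CPM in number 4 embryos, with 355, 283, 643 and 377 CPM in knockout 1, knockout 4, the library labelled heterozygous 2 and heterozygous 3. Col4a2 had 273, 173, 116 and 184 CPM in number 18 and 212, 204, 234 and 245 CPM in number 4 embryos, and 262, 203, 436 and 229 CPM in those 4. The title numbers overlapped for both genes, and the library labelled heterozygous 2 was the highest of 12 for both. Col4a6, an X-linked chain of the smooth muscle and skin basement membranes, had 23.7, 11.4, 9.56 and 13.3 CPM in number 18 and 33.5, 26.98, 24.98 and 34.2 CPM in number 4 embryos. It was lower in number 18 (log2 fold change -1.13 ± 0.20 SE, edgeR adjusted p = 0.0186), and number 14 and number 15 embryos, at 46.4 and 47.3 and 47.5 CPM, were higher than any of these, while heterozygous 3 had 18.8 CPM. Its head-to-head partner Col4a5, 1275 bases away, had 31.2 to 65.1 CPM in number 18 and 59.3 to 78.7 CPM in number 4 embryos (log2 fold change -0.58 ± 0.21 SE, edgeR adjusted p = 0.109). The kidney and lens chains Col4a3 and Col4a4, whose starts are 77 bases apart on chromosome 1, reached at most 1.06 and 1.29 CPM. Ddx3y, a Y-linked gene, exceeded 1 CPM in 2 of 4 number 18 and 3 of 4 number 4 embryos, in 3 of 4 knockouts, 0 of 4 heterozygotes and 3 of 4 wild-types. Its part in the levels of these X-linked genes was not tested.

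Among the basement membrane zone chains, Col18a1 had 358, 248, 238 and 258 CPM in number 18 and 466, 323, 353 and 431 CPM in number 4 embryos. It was lower in number 18 (log2 fold change -0.53 ± 0.12 SE, edgeR adjusted p = 0.0407), although knockout 3 lay inside the number 4 range, and knockout 1, knockout 4, the library labelled heterozygous 2 and heterozygous 3 had 453, 475, 668 and 342 CPM. Col15a1, which stabilizes capillaries and muscle, had 14.5, 16.4, 7.46 and 15.3 CPM in number 18 and 16.5, 18.1, 23.7 and 19.9 CPM in number 4 embryos, without overlap, yet it did not pass (log2 fold change -0.56 ± 0.25 SE, edgeR adjusted p = 0.182), and the other 4 embryos in that order had 13.4, 12.9, 19.1 and 23.5 CPM. Part of its exons lies opposite 5 predicted genes with which reads are shared. Col7a1, the anchoring fibril chain of skin, had 4.23 to 7.05 CPM in number 18 and 1.99 to 3.54 CPM in number 4 embryos (log2 fold change 0.84 ± 0.26 SE, edgeR adjusted p = 0.0768).

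The short chain genes Col8a1 and Col8a2, which encode the subunits of type VIII collagen in vessel walls and the cornea, were both higher in number 18. Col8a1 had 5.53, 15.1, 8.21 and 8.42 CPM in number 18 and 0.928, 3.79, 2.60 and 2.33 CPM in number 4 embryos, 2.28 and 6.51 CPM in number 14, 0.69 CPM in knockout 4 and 2.01 CPM in heterozygous 3. It was higher in number 18 (log2 fold change 2 ± 0.19 SE, edgeR adjusted p = 0.00228), and the library labelled heterozygous 2 exceeded knockout 3. Col8a2 had 42.2, 62.4, 50.3 and 61.6 CPM in number 18 and 5.87, 26.8, 19.9 and 22.1 CPM in number 4 embryos (log2 fold change 1.70 ± 0.26 SE, edgeR adjusted p = 0.0117), with 16.3, 5.09, 17.7 and 16.4 CPM in knockout 1, knockout 4, the library labelled heterozygous 2 and heterozygous 3.

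Of the transmembrane chains, Col17a1, which joins basal epidermal cells to the basement membrane in hemidesmosomes, showed the largest fold change of any tested collagen gene between the title numbers. It had 8.18, 14.1, 14.7 and 12.01 CPM in number 18 and 1.08, 1.95, 3.01 and 2.33 CPM in number 4 embryos, and 2.83, 0.966, 1.56 and 1.32 CPM in knockout 1, knockout 4, the library labelled heterozygous 2 and heterozygous 3. All 4 number 18 embryos lay above the rest (log2 fold change 2.59 ± 0.20 SE, edgeR adjusted p = 0.000829). Basal epidermis markers (Krt5, Krt14, Krt15, Krt17 and Trp63), a list chosen after values were seen, moved the same way, with a summed level of 187.1 to 389 CPM in number 18 and 57.9 to 78.2 CPM in number 4 embryos, and 4 of 5 higher. Their part in the Col17a1 difference was not tested. Col23a1 had 76.7, 72.2, 48.6 and 71.2 CPM in number 18 and 59.4, 58.6, 72.5 and 72.8 CPM in number 4 embryos, and Col25a1 had 15.9, 16.7, 7.69 and 18.03 CPM in number 18 and 7.94, 10.8, 16.7 and 15.1 CPM in number 4 embryos. Those 4 other embryos had 73.6, 33.2, 60.6 and 68.5 CPM of Col23a1 and 12.7, 4.05, 10.3 and 11.3 CPM of Col25a1. The title numbers overlapped for both, as they did for Col13a1 at 4.85 to 10.0 CPM over all embryos. Of the 2 genes outside these families, Col26a1, a secreted chain, had 181, 247, 251 and 263 CPM in number 18 and 137, 136, 131 and 146 CPM in number 4 embryos. It was higher in number 18 (log2 fold change 0.76 ± 0.12 SE, edgeR adjusted p = 0.0146), and knockout 1, knockout 4, the library labelled heterozygous 2 and heterozygous 3 had 131, 55.2, 134 and 163 CPM. Col28a1 had 0.847, 0.379, 0.275 and 0.529 CPM in number 18, 0.224, 0.313, 0.584 and 0.434 CPM in number 4 and 0.822, 0.0613, 0.127 and 0.63 CPM in the other 4 embryos, with overlap.

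**Figure D4:**
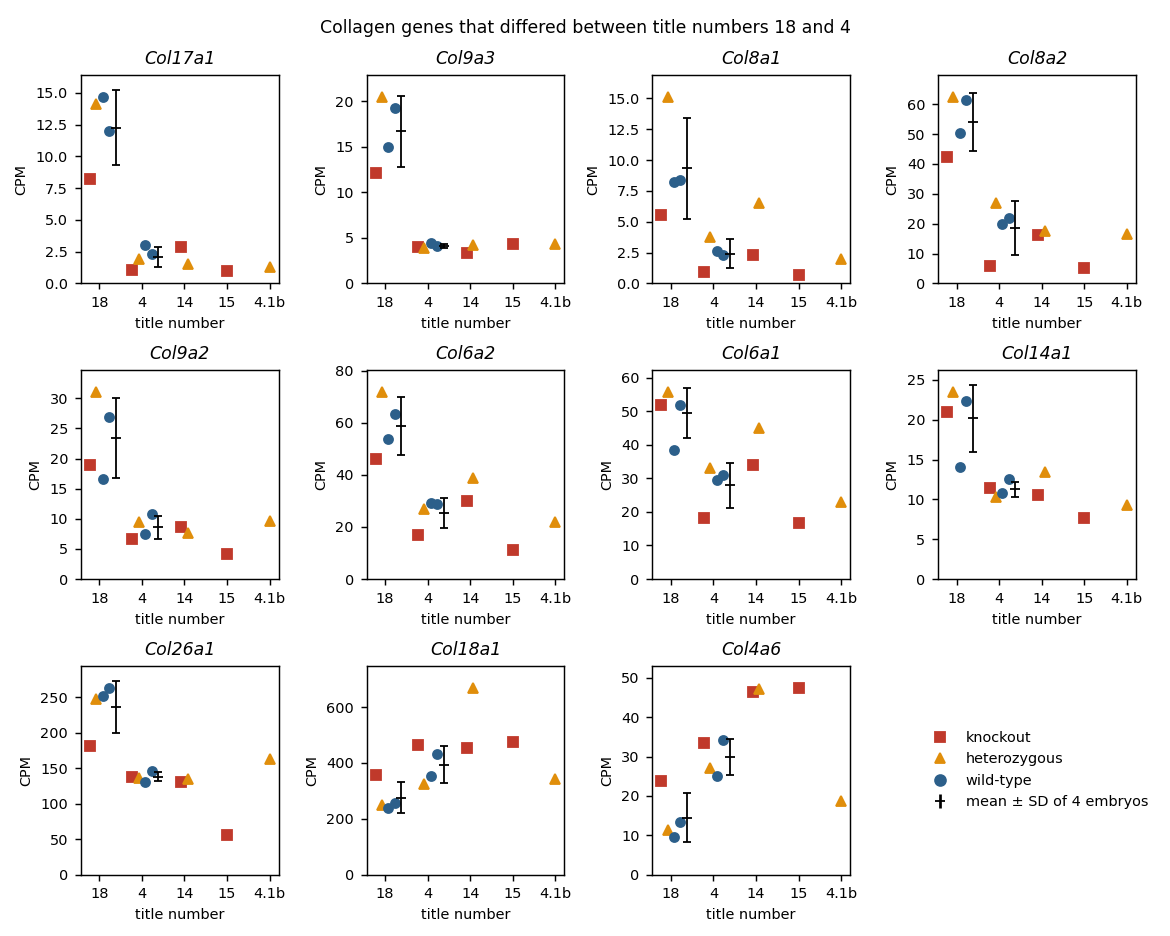
CPM of the 11 collagen genes that passed between title numbers 18 and 4, in every embryo; symbols give the genotype and black bars the mean ± SD of 4 embryos. Number 18 is above number 4 without overlap for Col17a1, Col9a3, Col8a1, Col8a2, Col9a2, Col6a2, Col6a1, Col14a1 and Col26a1, and below it without overlap for Col4a6.

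Over all 43 genes, 10 had every number 18 embryo above every number 4 embryo and 3 had every one below, against 10.1% and 9.79% of the 21492 genes tested. The calls rested on the set of embryos. Without heterozygous 1, heterozygous 4, wild-type 2 or wild-type 4, 6 collagen genes passed in each case, and without wild-type 3, 7 passed, while the share of all genes called was 0.983% to 1.93% in these 5 fits. Col17a1, Col6a2, Col8a1, Col8a2, Col9a2 and Col9a3 passed in all 8 such fits. With an index of developmental stage as a covariate, described with the genotypes, 0 collagen genes passed and 6 of all 21492 genes did (0.0279%), although the log2 fold change of Col17a1 was 2.59 there (edgeR adjusted p = 0.0804).

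Of the genes known to be on earlier or later in development, some differed between the title numbers. Over all 21492 genes tested, 4.75% were higher and 3.1% lower in number 18. The earlier-stage list summed to 41.4 to 98.9 CPM in number 18 and 134.0 to 459 CPM in number 4 embryos, and 3 of 12 were lower in number 18, among them Lin28a (log2 fold change -2.91 ± 0.17 SE, edgeR adjusted p = 0.000402). The later-stage list had 3 of 13 genes higher and 0 lower with edgeR, 5 of the 13 had a negative fold change, and its sums overlapped, with 683.4 to 1132 CPM in number 18 and 381.7 to 960.5 CPM in number 4 embryos. Of 6 endothelial markers 3 were lower, with sums of 180 to 243 CPM in number 18 and 294 to 309 CPM in number 4 embryos. Yolk sac endoderm markers had 3 of 7 higher, with sums of 137 to 4618 CPM in number 18 and 59.1 to 165 CPM in number 4 embryos. The part of these lists in the collagen differences was not tested. Without knockout 3, 13 collagen genes passed, all 11 of the earlier ones among them, against 17.2% of all genes (3910).

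Among genes that make, carry and bind collagens, some of the synthesis group were higher in number 18. Over all 21492 genes tested, 4.75% were higher and 3.1% lower, to be set beside the counts that follow. The synthesis and crosslinking list summed to 6782 CPM in the library labelled heterozygous 2, which carries neither number. In the other embryos it summed to 2835 to 4480 CPM. Its gene P4ha1 had 710.1 CPM in that library and 60.55 to 91.87 CPM elsewhere. Of 33 genes for synthesis and crosslinking, 5 were higher in number 18 and 0 lower, with a median log2 fold change of 0.22. They were P4ha3 (log2 fold change 1.67 ± 0.18 SE) and P3h3 (0.65 ± 0.13), which hydroxylate prolines, Crtap (0.54 ± 0.13), a partner of the 3-hydroxylase, Loxl1 (1.18 ± 0.13), a crosslinking oxidase, and Sparc (0.76 ± 0.14), a collagen-binding protein. Among 10 collagen receptors 0 passed with edgeR, with 0 higher and 1 lower at an unadjusted p under 0.05, against 28.9% of all genes. Of 10 other fibrillar matrix genes, 4 were higher, namely Eln, elastin, with a log2 fold change of 1.62 ± 0.19 SE, Fmod with 1.41 ± 0.12, Dcn with 0.94 ± 0.22 and Bgn with 0.78 ± 0.11, the last 3 being small proteoglycans that bind fibrils. Of 15 other basement membrane proteins, the epidermal laminin chain Lama3 was higher (log2 fold change 1.35 ± 0.18 SE) and Lama1 lower (-0.92 ± 0.23). Of 9 other cartilage genes tested, the matrilin gene Matn4 (log2 fold change 2.65 ± 0.40 SE) and the bone regulator Runx2 (1.5 ± 0.34) were higher, and Matn3 (-1.54 ± 0.19) and the link protein gene Hapln1 (-0.90 ± 0.18) lower. Of 10 mesenchyme markers, the transcription factor genes Twist2 (1.18 ± 0.21), Osr1 (1.48 ± 0.16) and Meox2 (0.75 ± 0.13) were higher. Of 6 sclerotome and notochord markers tested, Pax1 was higher (0.99 ± 0.22) and Shh lower (-0.87 ± 0.19). Red blood cell markers had 0 of 7 called.

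Promoter sequence was set beside these results for the 4 genes with the largest rises in number 18 that have a listed window. The windows run from 250 bases before to 50 after the start in RefSeq GRCm38.p6. Capitals mark the TATA box (TATAAA), the CCAAT box, the GC box (GGGCGG) and the SOX core (ACAAAG) on either strand. In these windows only GC boxes overlap each other. They lie at chr19:47691993-47692292 on the minus strand, chr16:57754688-57754987 on the minus strand, chr4:126286544-126286843 on the plus strand and chr4:121039316-121039615 on the plus strand.
Col17a1: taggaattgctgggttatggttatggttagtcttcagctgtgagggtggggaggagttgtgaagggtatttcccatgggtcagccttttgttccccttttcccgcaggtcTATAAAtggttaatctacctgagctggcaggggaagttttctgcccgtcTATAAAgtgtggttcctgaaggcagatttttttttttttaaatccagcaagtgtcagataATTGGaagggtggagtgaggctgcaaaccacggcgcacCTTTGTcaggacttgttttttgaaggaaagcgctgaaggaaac
Col8a1: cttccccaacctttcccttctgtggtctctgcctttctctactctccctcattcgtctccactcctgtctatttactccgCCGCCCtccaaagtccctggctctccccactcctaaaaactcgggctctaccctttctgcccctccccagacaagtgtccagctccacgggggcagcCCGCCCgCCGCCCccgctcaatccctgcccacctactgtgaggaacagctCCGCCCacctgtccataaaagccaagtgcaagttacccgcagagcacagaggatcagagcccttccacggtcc
Col8a2: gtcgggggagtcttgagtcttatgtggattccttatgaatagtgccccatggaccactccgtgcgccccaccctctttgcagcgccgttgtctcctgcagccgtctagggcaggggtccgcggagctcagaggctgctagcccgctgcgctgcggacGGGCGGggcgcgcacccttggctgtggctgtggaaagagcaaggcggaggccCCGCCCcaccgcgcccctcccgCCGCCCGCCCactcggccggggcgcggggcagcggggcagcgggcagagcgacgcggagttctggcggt
Col9a2: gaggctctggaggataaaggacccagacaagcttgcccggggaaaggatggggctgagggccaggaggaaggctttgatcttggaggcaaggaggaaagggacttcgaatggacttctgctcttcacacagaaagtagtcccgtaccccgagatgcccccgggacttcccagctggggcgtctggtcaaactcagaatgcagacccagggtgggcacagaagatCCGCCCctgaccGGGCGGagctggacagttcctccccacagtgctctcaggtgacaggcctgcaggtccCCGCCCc
The Col17a1 window held 2 TATA boxes, 1 CCAAT box and 1 SOX core and no GC box, at 46.3% G and C. The windows of Col8a1, Col8a2 and Col9a2 held 4, 4 and 3 GC boxes and no TATA box, at 60.3%, 71.7% and 61.7% G and C, against a median of 52.7% over all windows. A window was listed for 35 of the 44 genes, 38 windows in all, and Col9a3, Col26a1 and Col14a1 had none. The GC box was found in 60.5% of the collagen windows and 35.7% of all 32851 windows, the TATA box in 13.2% and 13.6%, the CCAAT box in 34.2% and 37.4%, and the SOX core in 13.2% and 18.7%. These matches are descriptions of the sequence.

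Between genotypes, no collagen gene passed the test. In knockout against wild-type embryos, 0 of 43 passed with edgeR, against 0% of 20771 genes. At an unadjusted p under 0.05, DESeq2 found 2 collagen genes, against 9.64% of all genes, and limma-voom 1, against 8.88%. With edgeR there was 1, against 8.33%. It was Col6a5, an alternative type VI chain, with 0, 0.0995, 0.0611 and 0 CPM in knockout and 0.258, 0.493, 0.0898 and 0.243 CPM in wild-type embryos. Heterozygous embryos had 0.350, 0, 0.0731 and 0.0339 CPM of it. Its log2 fold change was -2.69 ± 1.15 SE (edgeR adjusted p = 0.596), it had at most 34 reads in any embryo, and 3 embryos, knockout 1, knockout 4 and the library labelled heterozygous 2, had 0. Next came Col4a6, with 46.4, 33.5, 23.7 and 47.5 CPM in knockout and 9.56, 13.3, 24.98 and 34.2 CPM in wild-type embryos (a log2 fold change of 0.88 ± 0.44 SE, edgeR adjusted p = 0.619), and Col26a1, with 131, 137, 181 and 55.2 CPM in knockout and 251, 263, 131 and 146 CPM in wild-type embryos (a log2 fold change of -0.65 ± 0.34 SE, edgeR adjusted p = 0.623). Knockout and wild-type embryos overlapped for all 3 of these genes. With the title number as a block these 3 log2 fold changes were -1.51, 0.52 and -0.22. The collagen genes had a median log2 fold change of -0.01, against 0.01 over all genes, and of 0.23 with the stage index as a covariate, against -0.01. Without knockout 3 and the library labelled heterozygous 2, 0 passed with edgeR and 10 reached an unadjusted p under 0.05, 2 higher and 8 lower in knockouts, against 16.3% of all genes.

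Of 12 earlier-stage and 13 later-stage genes, 0 passed with edgeR in any genotype comparison. In knockout against wild-type embryos, 5 of the 12 were higher and 5 of the 13 lower at an unadjusted p under 0.05, against 8.33% of all genes in either direction. The stage index was the mean standardized level of later-stage genes minus that of earlier-stage genes. It ran from -3.79 to 0.10 in knockout, from 0.09 to 1.25 in heterozygous and from -0.59 to 1.97 in wild-type embryos. Knockout and heterozygous embryos overlapped only through knockout 3, at 0.10, and the library labelled heterozygous 2, at 0.09. The other heterozygotes lay at 0.75, 0.98 and 1.25, above every knockout. Knockout and wild-type embryos overlapped only through knockout 3 and wild-type 4, at -0.59. The summed earlier-stage genes lay between 98.9 and 691.7 CPM in knockout, 49.9 and 211 CPM in heterozygous and 41.4 and 185.8 CPM in wild-type embryos. Their part in the collagen levels was not tested. With the index as a covariate, 0 collagen genes passed in any of the genotype comparisons, against 0% of all genes. Of the related lists, 0 of 33 synthesis and crosslinking genes, 0 of 10 receptors and 0 of 15 other basement membrane proteins passed with edgeR in knockout against wild-type embryos, with median log2 fold changes of -0.12, 0.11 and 0.34.

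In knockout against heterozygous embryos, 0 of 43 passed with edgeR, against 0%, and 0 reached an unadjusted p under 0.05, against 7.4% of all genes. At that unadjusted threshold DESeq2 found 1, against 8.51% of all genes, and limma-voom 4, against 12.4%. Col8a1 had the smallest p, with 2.28, 0.928, 5.53 and 0.69 CPM in knockout and 15.1, 6.51, 2.01 and 3.79 CPM in heterozygous embryos (log2 fold change -1.54 ± 0.73 SE, edgeR adjusted p = 0.68). Col15a1 followed, with 13.4, 16.5, 14.5 and 12.9 CPM in knockout and 16.4, 19.1, 23.5 and 18.1 CPM in heterozygous embryos (log2 fold change -0.43 ± 0.28 SE). Col20a1 had 4.11, 3.30, 6.06 and 3.46 CPM in knockout, 4.55, 1.90, 2.81 and 3.06 CPM in heterozygous and 2.65, 4.99, 3.74 and 3.98 CPM in wild-type embryos (log2 fold change 0.46 ± 0.31 SE between knockout and heterozygous embryos). Knockout and heterozygous embryos overlapped for all 3 genes. The median over collagen genes was -0.11, against 0 over all genes, and 0.25 with the stage index as a covariate, again against 0. In heterozygous against wild-type embryos, 0 of 43 passed with edgeR, against 0%. At an unadjusted p under 0.05, DESeq2 found 1, against 1.26% of all genes, and limma-voom 2, against 3.13%. With edgeR there was 1, against 1.01%. It was Col5a3, with 0.992, 1.52, 1.68 and 1.32 CPM in heterozygous and 0.654, 1.06, 0.883 and 0.903 CPM in wild-type embryos (a log2 fold change of 0.65 ± 0.30 SE, edgeR adjusted p = 1). Col5a3 had 1.15, 1.36, 0.824 and 1.23 CPM in knockout embryos. Next was Col4a4, with 0.877, 0.481, 0.824 and 0.215 CPM in knockout, 0.802, 0.296, 0.475 and 0.881 CPM in heterozygous and 1.29, 1.09, 0.988 and 0.903 CPM in wild-type embryos (log2 fold change -0.79 ± 0.46 SE between heterozygous and wild-type embryos). Col4a2 had a log2 fold change of 0.42 ± 0.29 SE, and of 0.05 without the library labelled heterozygous 2. The median over collagen genes was -0.02, against -0.01 over all genes.

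**Figure D5:**
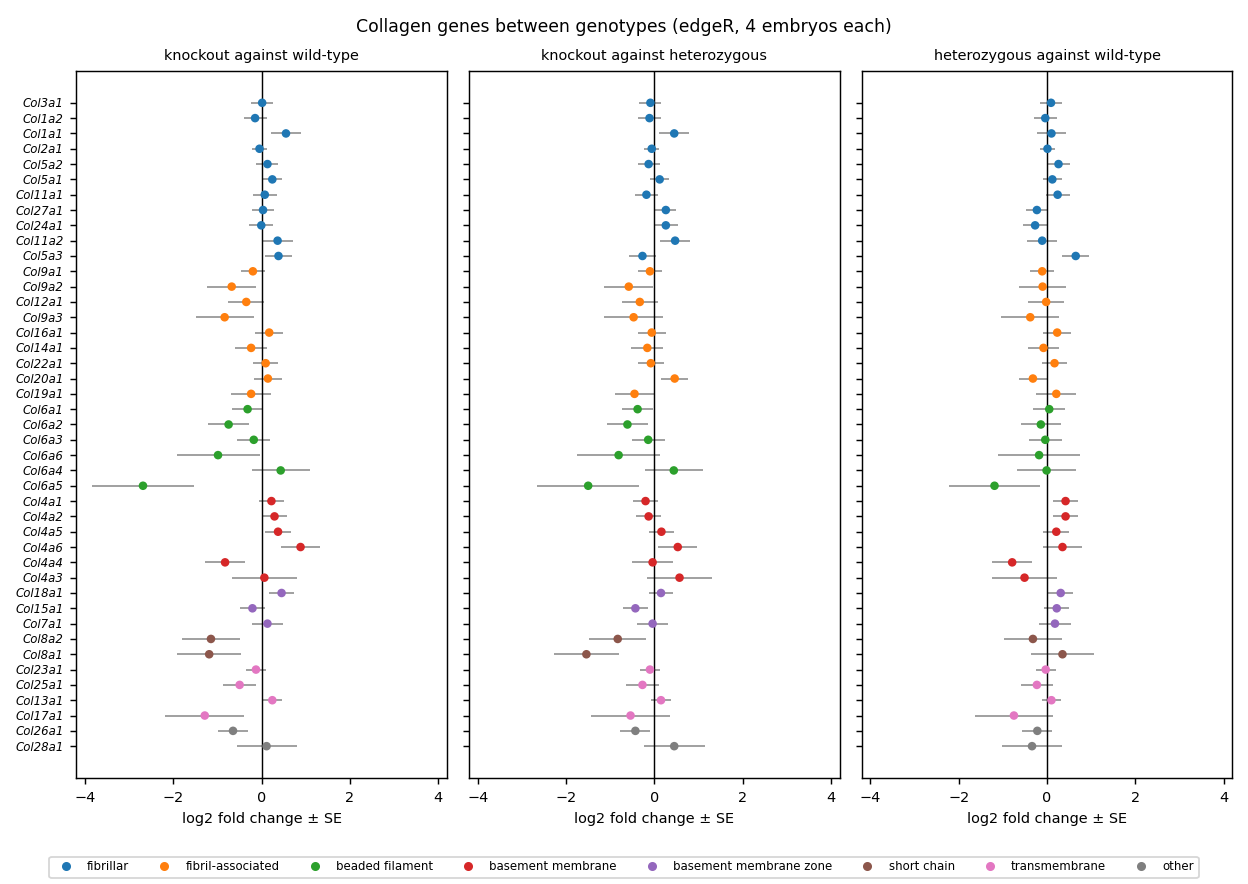
Log2 fold change ± SE of each tested collagen gene in the 3 genotype comparisons, coloured by structural type. Values scatter around 0, with Col6a5 at -2.69 in knockout against wild-type embryos as the farthest.

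The knockout and the wild-types of a title number were also compared directly. Among number 18 embryos, the knockout lay above both wild-types for 26 of 43 collagen genes and below both for 8, against 38.4% and 35.8% of 20771 genes. Among number 4 embryos, the knockout lay above both for 3 and below both for 32, against 39.8% and 41% of genes. The median difference was 0.42 on the log2 scale in number 18 and -0.38 in number 4. Each number holds 1 knockout, no test was made of these differences, and knockout 3 of number 18 is the embryo with 4618 CPM of yolk sac endoderm markers.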

How the data were processed

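RNA from 12 whole mouse embryos was sequenced. The deposited values are raw estimated counts (expected counts) for each gene. Per the file headers, featureCounts 2.0.6 assigned reads to RefSeq genes on GRCm39. Each mate was counted separately, reads of several places or genes added fractions, and strand was not used. Fractions of reads occurred in 22 of the 44 collagen genes, and 16 share exon bases with another gene. The submitters' processing notes also name DRAGEN and Subread, with no step given. Counts were rounded and tested in R 4.3.3 with edgeR 4.0.16 (TMM scaling, filterByExpr, robust quasi-likelihood test, Benjamini-Hochberg over all genes, threshold 0.05). Genotypes were compared over 12 embryos and title numbers 18 and 4 over 8, with genotype as a covariate. Totals were 53133084 to 67977990 counted reads, and CPM and RPKM were computed from the counts with TMM-scaled totals of the tested genes. Log2 values in figures have 0.5 CPM added. Scripts were tested on simulated data. Alternatives were DESeq2 1.42.0, limma-voom 3.58.1, other filters, scaling and covariates, and leaving out embryos. Values in every embryo are given for genes that passed, the 2 most abundant genes of each type, and the 3 smallest p in each comparison. The members and lists were chosen with earlier results of these data known. Embryos were numbered in deposition order within a genotype.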

Additional observations from a re-analysis of the deposited data

Results flagged for a closer look

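In groups of 4 embryos, 120 were examined for an embryo far from the other 3, and 8 were found. Chance would pick out about 1 in 20 groups if they were independent and unselected. These groups share embryos, and genes such as Col9a2, Col9a3 and Col17a1 were examined because they passed between the title numbers. The 8 are therefore descriptions and were not tested against chance. Heterozygous 1, the heterozygous embryo of number 18, was high for Col9a2 (30.98 CPM against 7.61 to 9.56 CPM in the other heterozygotes), Col9a3 (20.49 CPM against 3.86 to 4.33 CPM), Col17a1 (14.11 CPM against 1.32 to 1.95 CPM) and Col25a1 (16.68 CPM against 10.3 to 11.3 CPM). Knockout 3, the knockout of number 18, was high for Col9a3 (12.13 CPM against 3.40 to 4.37 CPM in the other knockouts), and for Col18a1 among number 18 embryos (357.6 CPM against 237.9 to 257.9 CPM). Knockout 2 was low for Col3a1 among number 4 embryos (741.1 CPM against 1012 to 1025 CPM), and wild-type 1 low for Col23a1 among wild-types (48.58 CPM against 71.2 to 72.8 CPM).

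In 20 of the 44 collagen genes the knockout lay above both wild-types in number 18 and below both in number 4, and in 0 the other way round. Of all 20771 genes, 38.4% lay above both in number 18 and 41% below both in number 4. For the other way round these shares were 35.8% and 39.8%. The share of all genes that met both conditions was not computed, so the count of 20 has no background beside it. The widest gap was that of Col6a3, with knockout minus wild-type log2 values of 0.69 in number 18 and -1.43 in number 4. The 20 include 8 of the genes picked by the naming rule. For these the difference between these 2 knockout minus wild-type contrasts, number 18 minus number 4 on the log2 scale, was 1.23 for Col4a1, 1.08 for Col4a2, 1.07 for Col28a1, 0.96 for Col3a1, 0.89 for Col1a2, 0.86 for Col20a1, 0.67 for Col23a1 and 0.61 for Col9a1. These differences were not tested.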

How the results depend on the processing

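Genotype counts of 0 collagen genes held under all alternatives run, DESeq2, limma-voom, a title number block and each embryo left out included. Few genes of any kind passed in these fits, so a collagen count of 0 had little room to change. Of 20771 genes, limma-voom called 0 in each genotype comparison. DESeq2 called 122 in knockout against wild-type, 74 in knockout against heterozygous and 4 in heterozygous against wild-type embryos. For the title numbers, 11 calls became 24 with limma-voom, 16 with DESeq2, 13 without a filter, 10 in a fit of all 12 embryos and 0 with the stage index as a covariate, under which all genes had 6 calls, and leaving out 1 embryo each gave 6 to 13. Over all genes, limma-voom called 8638 and DESeq2 3841, against 1688 with edgeR. Leaving out the only heterozygote of a number fits the remaining heterozygote exactly, so the fits without heterozygous 1 and heterozygous 4 are nearly the same, as are those without knockout 2 and knockout 3. The log2 fold change of Col26a1 in knockout against wild-type embryos was 0.22 with the stage index. That of Col4a2 in heterozygous against wild-type embryos was -0.06 with limma-voom. With edgeR it was 0.05 without the library labelled heterozygous 2. The cause of these shifts was not tested. Depth limits the scarce genes: Col6a5 had at most 34 reads in an embryo and Col10a1 at most 24.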
